A study of Mus musculus with 4 samples.

Results

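Potassium channel genes were read from mRNA sequencing of C2C12 cells, a C3H mouse myoblast line whose cells fuse into myotubes in low serum. The genes are the 42 protein-coding genes of the authors' deposited comparison table whose symbols begin with Kcn followed by a letter from a to v, out of 18378 rows in that table and 49585 genes in the count tables. They comprise 15 voltage-gated, 6 inward rectifier, 6 tandem-pore (K2P), 6 calcium-activated (with their sodium- and pH-gated relatives) and 9 auxiliary genes. A further 52 protein-coding genes with such symbols stood in the count tables but not in that table. Of these, 27 had no fragment in any library, none had more than 19 fragments in all, and none was tested.

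One group of cells carried a retrovirus to overexpress C/EBPβ, a basic leucine zipper protein best known for its part in adipocyte formation, and the other carried the empty vector pLXSN. Both groups were drug-resistant pools kept in G418 at 1200 µg/ml for 7 days, left to proliferate for 2 days and then differentiated for 2 days in 2% horse serum. Each group held 2 libraries, with 50493417 and 36461091 fragments assigned to genes in overexpressing cells, and 45448661 and 51537847 in empty-vector cells. Nothing in the labels states that libraries of one group are separate cultures, and p-values here reflect variation among the libraries, part or all of which may be technical.

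Potassium channels let potassium leave or enter the cell through a selective pore and so set the resting membrane potential and end action potentials. Voltage-gated subunits open on depolarisation, inward rectifiers pass current near the resting potential, K2P channels carry background leak, and calcium-activated channels couple the potential to calcium. Auxiliary subunits form no pore but change how the pore-forming subunits open or reach the membrane. In human myoblasts, the hyperpolarisation that precedes fusion is known to depend on the ether-à-go-go channel KCNH1 and then on the inward rectifier Kir2.1, encoded by KCNJ2.

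Cebpb averaged 472 ± 42.6 CPM in overexpressing cells and 42.0 ± 1.04 CPM in empty-vector cells (fragment counts scaled to library size; mean ± SD, n = 2 each). It was higher by 3.49 on the log2 scale (SE 0.11, adjusted p = 9.03e-07 in edgeR's quasi-likelihood test). Markers of myoblasts and myotubes were abundant in both groups and lower in overexpressing cells for 10 of 11 genes, with summed levels of 6279 and 9984 CPM in overexpressing libraries, against 23061 and 24962 CPM in empty-vector libraries. Myog, which drives myoblast differentiation, averaged 602 ± 132 CPM in overexpressing and 1647 ± 114 CPM in empty-vector cells (n = 2 each), and Myod1 (-0.59, SE 0.09) and Myh3 (-2.34, SE 0.41) were lower as well on the log2 scale. The remaining marker, Myf5, was higher, at 65.1 CPM in overexpressing and 30.5 CPM in empty-vector cells (log2 fold change 1.10, SE 0.12, adjusted p = 0.000407). In bulk RNA, fewer cells of a type and less RNA per cell cannot be told apart. Of the neuron markers, 6 of 6 tested were lower and Rbfox3, Snap25 and Elavl4 had no fragment. Smooth muscle and pericyte markers were higher for 4 and lower for 2 of 7 tested, with summed levels of 4645 and 5617 CPM in overexpressing libraries, against 6592 and 6568 CPM in empty-vector libraries. Among them Cnn1 averaged 3.04 CPM in overexpressing and 0.148 CPM in empty-vector cells, Lmod1 72.8 CPM in overexpressing and 14.6 CPM in empty-vector cells, and the untested Myh11 0.0971 CPM in overexpressing and 0.115 CPM in empty-vector cells. These smooth muscle sums came mostly from Acta2 (3103 CPM in overexpressing and 3279 CPM in empty-vector cells, not passed) and Des. Des, also counted among the myoblast and myotube markers, averaged 1632 CPM in overexpressing and 3032 CPM in empty-vector cells. Adipocyte markers were higher for 3 of 3 tested, with summed levels of 1495 and 1052 CPM in overexpressing libraries, against 16.0 and 17.4 CPM in empty-vector libraries, nearly all from Lpl (1271 CPM in overexpressing and 16.7 CPM in empty-vector cells). Of the untested adipocyte markers, Adipoq had 18 and 1 fragments in overexpressing libraries and 1 in each empty-vector library. Cidec had 1 fragment, in overexpressing replicate 1. Macrophage markers were higher for 2 and lower for 1 of 4, with summed levels of 32.7 and 30.3 CPM in overexpressing libraries, against 3.43 and 3.12 CPM in empty-vector libraries, mostly from Lyz2 in overexpressing cells (27.3 CPM in overexpressing and 0.107 CPM in empty-vector cells), and with Adgre1 at 0. Fibroblast markers were higher for 3 and lower for 2 of 7, with summed levels of 13337 and 13146 CPM in overexpressing libraries, against 4845 and 3930 CPM in empty-vector libraries. These sums came mostly from Col3a1 (12168 CPM in overexpressing and 3554 CPM in empty-vector cells), while Lum and Cd34 were the lower genes. Glial markers were higher for 1 of 3, and endothelial markers were lower for 1 of 2 with Emcn at 0. The part of these markers in the results that follow was not tested.

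Of the 42 potassium channel genes, 32 passed the filter on low counts, and 11 of them were higher and 10 were lower in overexpressing cells at an adjusted p below 0.05. Called genes thus made up 65.6% of those tested, beside 43.2% of all 15886 genes tested (22.3% higher and 20.9% lower). The libraries of the groups did not overlap for 26 of the 32, with overexpressing cells above in 14 and below in 12, beside 75.1% of all genes tested (38.4% above and 36.7% below). Without empty-vector replicate 2, 2169 of all genes were higher and 1836 lower, while 11 channel genes were higher and 9 lower, so the background share itself moves with 1 library. The median log2 fold change was 0.27 over the 32 genes and 0.01 over all genes. A rise helps a gene with few fragments pass the filter, and 7 of the 11 higher genes had a mean below 1 CPM in empty-vector cells, whereas 9 of the 10 lower genes had at least 1 CPM there. At least 2-fold changes were found for 10 higher and 7 lower channel genes, against 9.11% and 7.5% of all genes. Of the 21 called genes, 18 kept their call under every alternative that gave a value, and the exceptions were Kcnj15, Kcnn3 and Kcnrg.

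**Figure D1:**
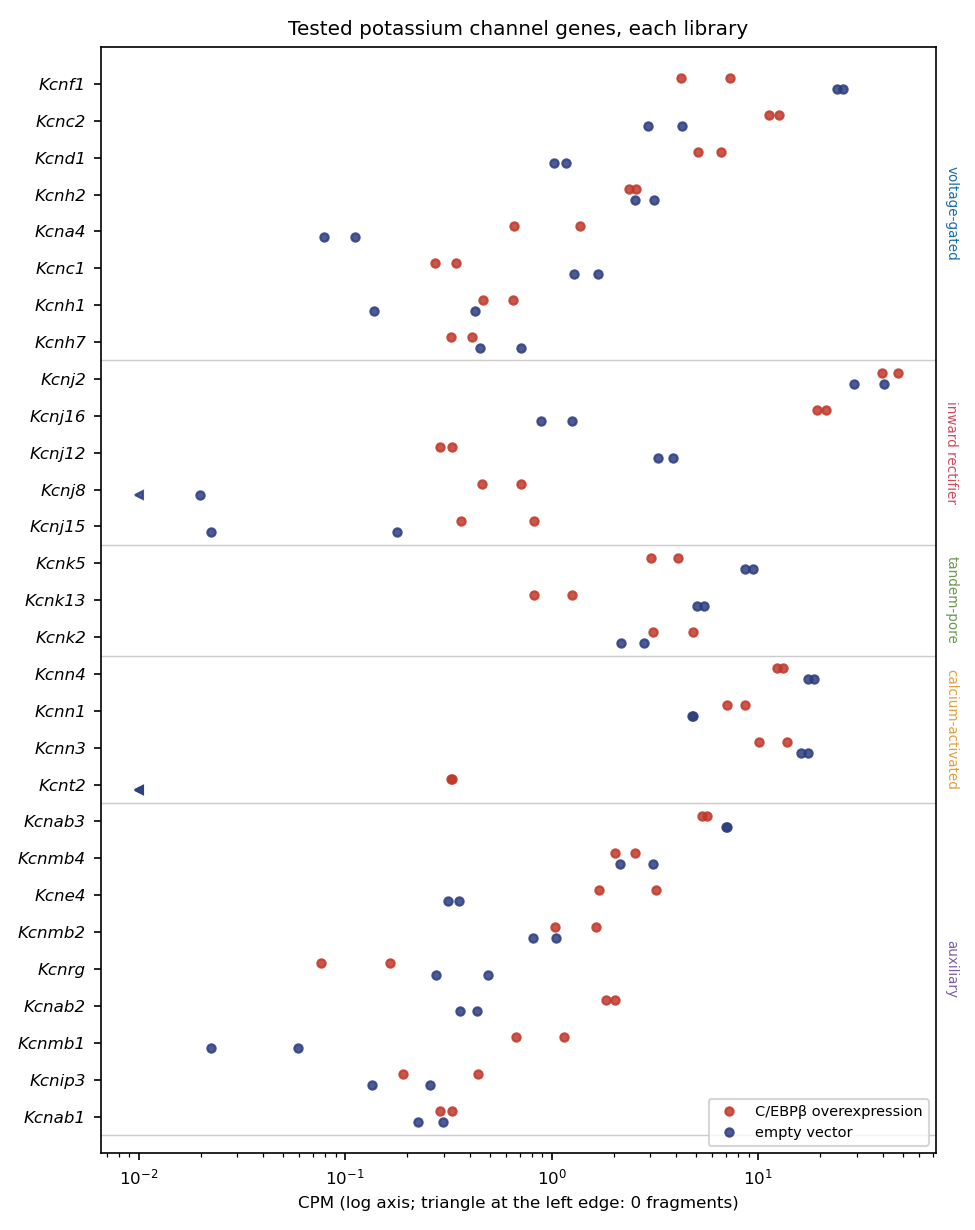
Level of 29 of the 32 tested potassium channel genes in each library, in CPM on a log axis, grouped by class and ordered within a class by mean level per length. Red points are the 2 overexpressing libraries and blue points the 2 empty-vector libraries. The groups lie far apart for Kcnj16 (means of 20.3 CPM in overexpressing and 1.07 CPM in empty-vector cells) and Kcnj12 (0.308 CPM in overexpressing and 3.56 CPM in empty-vector cells), and overlap for Kcnj2.

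Most potassium channel genes were weakly expressed, and the total was held by a few. On the scale of level per exonic length (FPKM), 14 of the 42 reached a mean of 1 in either group and 4 reached a mean of 5. Kcnj2 took 17.5% and 18.4% of the summed channel FPKM in overexpressing libraries, against 13.3% and 10.3% in empty-vector libraries, at rank 2 of 42 in both groups. Kcnj16 took 11.8% and 11.4% of it in overexpressing libraries, against 0.570% and 0.437% in empty-vector libraries, and took rank 3 in overexpressing cells, against rank 18 in empty-vector cells. Kcnf1 took rank 8 in overexpressing cells, against rank 3 in empty-vector cells.

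Summed by class, the voltage-gated genes stood at 16.7 and 20.0 FPKM in overexpressing libraries, against 31.0 and 29.7 FPKM in empty-vector libraries. The inward rectifiers stood at 12.5 and 14.7 FPKM in overexpressing libraries, against 9.29 and 6.85 FPKM in empty-vector libraries. The K2P genes stood at 1.83 and 2.66 FPKM in overexpressing libraries, against 4.79 and 5.20 FPKM in empty-vector libraries. The inward rectifier sum was thus higher in overexpressing cells, and the other 2 sums were lower. Within the inward rectifier sum, Kcnj16 averaged 5.15 FPKM in overexpressing and 0.273 FPKM in empty-vector cells. Kcnj2, which did not pass, averaged 7.99 FPKM in overexpressing and 6.41 FPKM in empty-vector cells, while Kcnj12 and Kcnj11 had lower means in overexpressing cells. Calcium-activated genes summed to 5.37 and 5.55 FPKM in overexpressing libraries, against 6.40 and 6.01 FPKM in empty-vector libraries. Auxiliary genes summed to 5.00 and 4.55 FPKM in overexpressing libraries, against 4.54 and 4.03 FPKM in empty-vector libraries. The libraries of the groups did not overlap for any of the 5 classes, beside 75.1% of single genes, and the differences in the sums were not tested.

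**Figure D2:**
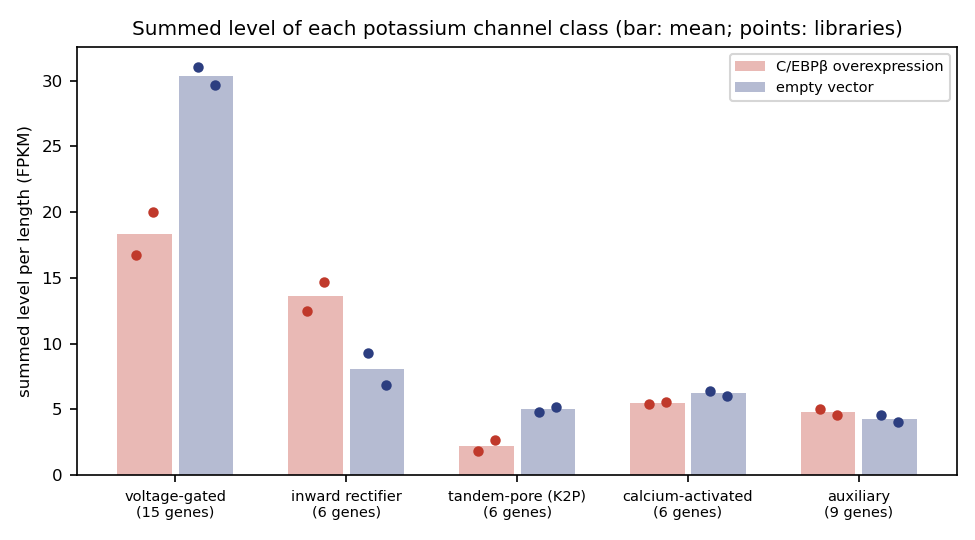
Summed level per length of each class of potassium channel genes in FPKM, with bars for the group mean (n = 2 each) and points for libraries, overexpressing in red and empty vector in blue. The voltage-gated and K2P sums are lower in overexpressing cells (voltage-gated means of 18.4 FPKM in overexpressing and 30.3 FPKM in empty-vector cells), and the inward rectifier sum is higher (13.6 FPKM in overexpressing and 8.07 FPKM in empty-vector cells).

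**Figure D3:**
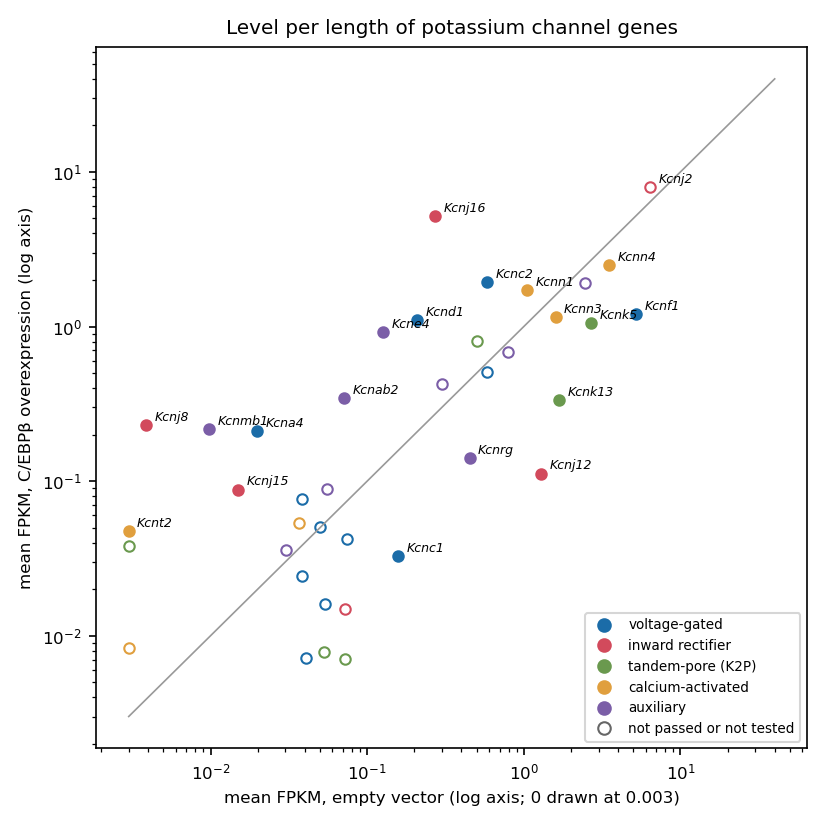
Mean level per length of 39 of the 42 potassium channel genes in overexpressing cells (vertical) against empty-vector cells (horizontal), both on log axes, coloured by class, with filled points for genes past the threshold. Kcnj2 lies highest, Kcnj16 lies far above the line of equal levels (5.15 FPKM in overexpressing and 0.273 FPKM in empty-vector cells), and Kcnj12 lies far below it (0.112 FPKM in overexpressing and 1.29 FPKM in empty-vector cells).

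The inward rectifiers diverged, and the 250 bases before the start of the gene that rose most clearly, of its neighbour that did not pass, and of the gene that fell furthest are shown in RefSeq's GRCm38.p6 sequence, 5′ to 3′ on the plus strand. The window of Kcnj16 is chr11:110967783-110968032, that of Kcnj2 is chr11:111065914-111066163, and that of Kcnj12 is chr11:61065554-61065803, 43240 bases inside the gene start of the count tables. Capitals mark matches on either strand to a C/EBP core (TTGCNNAA), to the E-box CAGCTG bound by muscle basic helix-loop-helix factors, or to a MEF2 site (CTA and TAG with any 4 bases between).
Kcnj16: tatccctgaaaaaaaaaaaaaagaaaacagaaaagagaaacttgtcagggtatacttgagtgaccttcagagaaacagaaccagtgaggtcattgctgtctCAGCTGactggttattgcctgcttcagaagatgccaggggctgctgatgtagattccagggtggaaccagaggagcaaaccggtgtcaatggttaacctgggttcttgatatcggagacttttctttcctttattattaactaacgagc
Kcnj2: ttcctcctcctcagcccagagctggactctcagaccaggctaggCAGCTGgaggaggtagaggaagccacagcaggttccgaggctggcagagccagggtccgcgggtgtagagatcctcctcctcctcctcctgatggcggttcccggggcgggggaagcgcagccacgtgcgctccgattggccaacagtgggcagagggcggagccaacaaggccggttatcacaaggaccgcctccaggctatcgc
Kcnj12: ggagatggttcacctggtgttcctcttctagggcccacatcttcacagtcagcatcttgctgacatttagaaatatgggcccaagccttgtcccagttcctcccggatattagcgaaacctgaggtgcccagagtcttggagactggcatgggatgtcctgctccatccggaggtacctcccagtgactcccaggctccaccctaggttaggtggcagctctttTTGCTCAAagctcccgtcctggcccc
In these windows CAGCTG began 149 bases before the start of Kcnj16 and 206 bases before that of Kcnj2, and a C/EBP core, TTGCTCAA, began 26 bases before that of Kcnj12. Windows were available for 32 of the 42 channel genes. A C/EBP core was found in 1 of them, or 3.12%, beside 9.56% of all 32851 windows of this length. CAGCTG was found in 6 channel windows, or 18.8%, beside 13% of all windows. It was found in 4 of 10 windows of higher genes (Kcne4, Kcnn1, Kcnj16 and Kcnc2), none of 8 of lower genes and 2 of 9 of genes that did not pass. The MEF2 letters were found in no channel window, beside 3.2% of all windows. All windows include every listed start of a gene, whereas each channel gene had 1 window, and differences between these sets were not tested. These matches are descriptions of letters and not of binding.

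Kcnj16 encodes Kir5.1, a subunit that forms little current alone and pairs with Kir4.1 or Kir4.2. It stood at 19.3 and 21.3 CPM in overexpressing libraries, against 1.26 and 0.890 CPM in empty-vector libraries. The overexpressing libraries were both far above the empty-vector libraries, an 18.9-fold difference (log2 fold change 4.25, SE 0.18, adjusted p = 3.22e-06). Kcnj15, which encodes its partner Kir4.2, stood at 0.364 and 0.820 CPM in overexpressing libraries, against 0.0224 and 0.178 CPM in empty-vector libraries. Kcnj15 rose (log2 fold change 2.41, SE 0.73, adjusted p = 0.0357), a call that ended without empty-vector replicate 1 (1.66, adjusted p = 0.104). Kcnj10, which encodes Kir4.1, had 1 fragment over all 4 libraries.

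Kcnj2 encodes Kir2.1, the strong inward rectifier named above, and lies beside Kcnj16 on the plus strand of chromosome 11, with 38195 bases and no other counted gene between them. Kcnj2 stood at 39.5 and 47.5 CPM in overexpressing libraries, against 40.7 and 29.1 CPM in empty-vector libraries. These values overlapped, and Kcnj2 did not reach the threshold (log2 fold change 0.32, SE 0.18, adjusted p = 0.203). Kcnj2 passed as higher without empty-vector replicate 1 (0.58, adjusted p = 0.0156) and without overexpressing replicate 1 (0.45, adjusted p = 0.000604), and without the low-count filter (0.31, adjusted p = 0.00668). Kcnj12 encodes Kir2.2, a second strong inward rectifier of muscle, and stood at 0.287 and 0.328 CPM in overexpressing libraries, against 3.86 and 3.26 CPM in empty-vector libraries. Kcnj12 fell 11.6-fold, the largest fall among the channel genes tested (log2 fold change -3.53, SE 0.27, adjusted p = 5.03e-05). In the GRCm38 coordinates of the count tables, Kcnj16 spans 110968033 to 111027968, Kcnj2 spans 111066164 to 111076821 and Kcnj12 spans 61022564 to 61071131 on chromosome 11.

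The pore subunits of ATP-sensitive channels, which close when ATP is high, were close to the detection limit. Kcnj8, which encodes Kir6.1 of vascular smooth muscle, had 24 and 26 fragments in overexpressing libraries, against 0 and 1 in empty-vector libraries. The ratio of scaled fragments was 53.6, with a 95% exact binomial counting interval from 9.18 to 2158, and Kcnj8 passed as higher (adjusted p = 0.000903). Kcnj11, which encodes Kir6.2 of skeletal muscle, went the other way with too few fragments to be tested, at 0 and 4 fragments in overexpressing libraries and 15 and 10 in empty-vector libraries, a ratio of 0.171 with an interval from 0.0434 to 0.496. Each of these pores lies beside the gene of a sulfonylurea receptor, its regulatory partner. Abcc9, which encodes SUR2 and lies 16247 bases from Kcnj8 on chromosome 6, stood at 0.689 and 1.78 CPM in overexpressing libraries, against 2.24 and 2.00 CPM in empty-vector libraries, and did not reach the threshold (log2 fold change -0.83, SE 0.41, adjusted p = 0.145). Abcc8, which encodes SUR1 and lies 3758 bases from Kcnj11 on chromosome 7, fell to 0.0957 and 0.0820 CPM in overexpressing libraries, against 0.426 and 0.336 CPM in empty-vector libraries (log2 fold change -2.04, SE 0.46, adjusted p = 0.00845). Abcc8 lost its call without empty-vector replicate 1 (adjusted p = 0.0620) and in DESeq2 (0.0831), while Abcc9 passed as lower without overexpressing replicate 2 (-1.63, adjusted p = 6.36e-06) and without the low-count filter (-0.84, adjusted p = 0.00581).

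Among the voltage-gated genes, 3 were higher and 4 lower of 11 tested, or 63.6% called beside 43.2% of all genes tested. The median of their log2 fold changes was -0.20. Kcnf1, which encodes Kv5.1, a silent subunit that forms no channel alone and modifies other voltage-gated channels, stood at 4.23 and 7.30 CPM in overexpressing libraries, against 24.1 and 25.6 CPM in empty-vector libraries (log2 fold change -2.13, SE 0.24, adjusted p = 0.00127). Both overexpressing libraries lay below both empty-vector libraries, and Kcnf1 fell 4.31-fold. Amigo1, an adhesion protein that accompanies voltage-gated channels in neurons, fell to 12.1 and 14.4 CPM in overexpressing libraries, against 19.4 and 18.6 CPM in empty-vector libraries (log2 fold change -0.53, SE 0.12, adjusted p = 0.00833).

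Kcnc1 and Kcnc2, of fast-opening Kv3 channels, moved in opposite directions. Kcnc1, which encodes Kv3.1, fell to 0.345 and 0.273 CPM in overexpressing libraries, against 1.68 and 1.29 CPM in empty-vector libraries (log2 fold change -2.23, SE 0.31, adjusted p = 0.000982). Kcnc2, which encodes Kv3.2, rose to 12.7 and 11.3 CPM in overexpressing libraries, against 4.29 and 2.93 CPM in empty-vector libraries (log2 fold change 1.74, SE 0.19, adjusted p = 0.000356). Kcnd1 and Kcna4, of rapidly inactivating A-type channels, both rose. Kcnd1, which encodes Kv4.1, stood at 6.62 and 5.09 CPM in overexpressing libraries, against 1.17 and 1.03 CPM in empty-vector libraries (log2 fold change 2.42, SE 0.22, adjusted p = 0.000118). Kcna4, which encodes Kv1.4, stood at 1.38 and 0.656 CPM in overexpressing libraries, against 0.112 and 0.0791 CPM in empty-vector libraries (log2 fold change 3.43, SE 0.53, adjusted p = 0.00166).

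None of the 3 ether-à-go-go family genes tested passed. Kcnh1, the mouse counterpart of the human channel that precedes Kir2.1, stood at 0.651 and 0.465 CPM in overexpressing libraries, against 0.426 and 0.138 CPM in empty-vector libraries (log2 fold change 1.04, SE 0.50, adjusted p = 0.130). Kcnh1 passed as higher without overexpressing replicate 2 (1.22, adjusted p = 0.0259), without empty-vector replicate 1 (2.01, adjusted p = 0.0309) and without the low-count filter (1.03, adjusted p = 0.0459). Kcnh2, which encodes ERG1 of the cardiac repolarising current, stood at 2.46 ± 0.153 CPM in overexpressing and 2.82 ± 0.416 CPM in empty-vector cells (n = 2 each; log2 fold change -0.20, SE 0.20), and Kcnh7 stood at -0.69 (SE 0.37). Kcna3, Kcna7, Kcnh3 and Kcnq1 had too few fragments to be tested. Over their libraries, Kcna3, the Kv1.3 channel of lymphocytes, had 1 fragment in overexpressing and 7 in empty-vector cells, and Kcna7, a Kv1 channel of muscle, had 7 in overexpressing and 15 in empty-vector cells. Kcnh3 had 15 fragments in overexpressing and 17 in empty-vector cells.

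**Figure D4:**
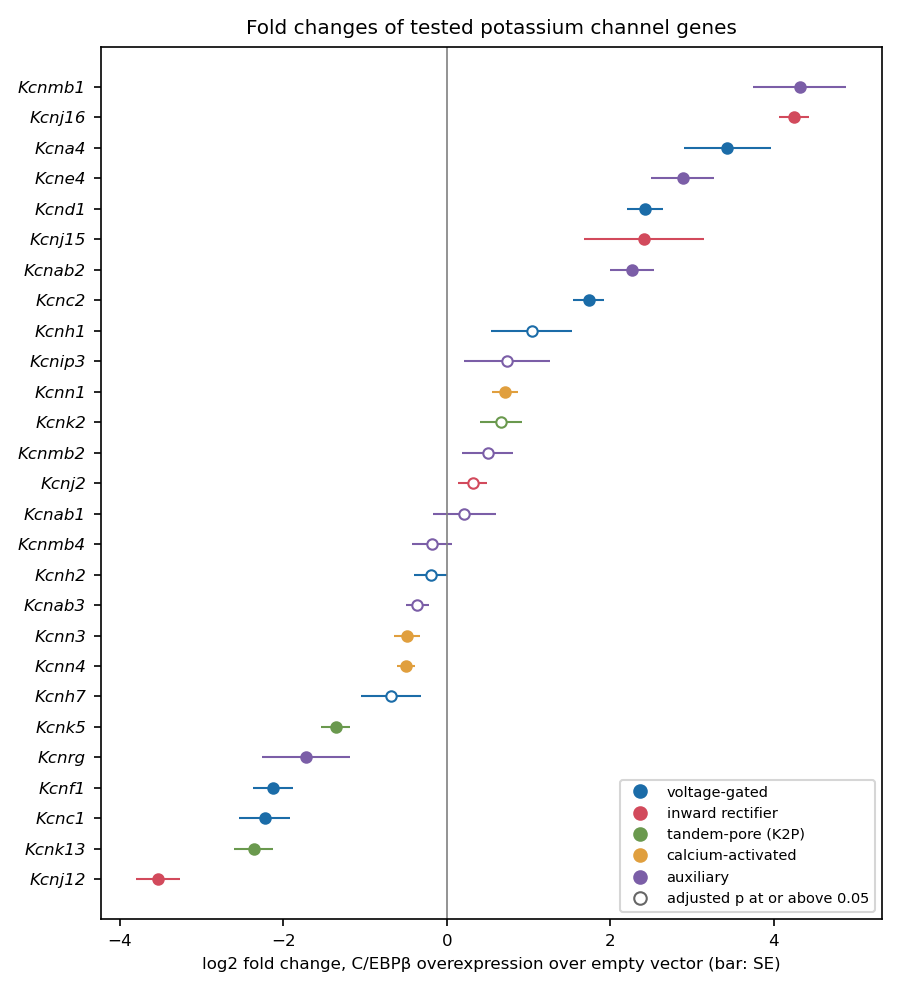
Log2 fold change of overexpressing over empty-vector cells for tested potassium channel genes, with bars for the SE, coloured by class, with open points at an adjusted p of 0.05 or above. Kcnt2 and Kcnj8, with at most 3 fragments in a group, are among those left out. Kcnj12 is lowest at -3.53, Kcnmb1 is highest at 4.32, and the K2P genes past the threshold both lie below 0.

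Of 3 K2P genes tested, 2 passed, or 66.7% called beside 43.2% of all genes tested, and both fell. Kcnk13, which encodes THIK-1, a background channel of microglia and other cells, stood at 0.823 and 1.26 CPM in overexpressing libraries, against 5.05 and 5.46 CPM in empty-vector libraries (log2 fold change -2.36, SE 0.23, adjusted p = 0.000190). Kcnk5, which encodes TASK-2, a channel opened by alkaline pH, stood at 3.02 and 4.08 CPM in overexpressing libraries, against 8.64 and 9.41 CPM in empty-vector libraries (log2 fold change -1.36, SE 0.18, adjusted p = 0.000699). Kcnk2, which encodes the stretch-sensitive TREK-1, stood at 3.10 and 4.81 CPM in overexpressing libraries, against 2.15 and 2.79 CPM in empty-vector libraries. Its groups did not overlap, but Kcnk2 did not reach the threshold (log2 fold change 0.66, SE 0.26, adjusted p = 0.0703), whereas it passed without overexpressing replicate 1 (0.96, adjusted p = 0.000300) and without the low-count filter (0.65, adjusted p = 0.00784). The other K2P genes were not tested, and of these Kcnk6 had 13 fragments in overexpressing and 1 in empty-vector cells, a ratio of 13.9 with an interval from 2.09 to 592, while Kcnk12 had 1 in overexpressing and 13 in empty-vector cells, a ratio of 0.0824 with an interval from 0.00194 to 0.549. Kcnk7 had 1 fragment in overexpressing and 6 in empty-vector cells.

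Of the calcium-activated genes, all 4 tested passed, 2 in each direction, beside 43.2% of all genes tested. Kcnn4, which encodes the intermediate-conductance channel KCa3.1 of proliferating cells, stood at 12.3 and 13.2 CPM in overexpressing libraries, against 18.7 and 17.3 CPM in empty-vector libraries (log2 fold change -0.50, SE 0.11, adjusted p = 0.00701). Kcnn3, which encodes SK3, a small-conductance channel of immature and denervated muscle, stood at 10.1 and 13.8 CPM in overexpressing libraries, against 17.3 and 16.0 CPM in empty-vector libraries (log2 fold change -0.49, SE 0.16, adjusted p = 0.0388). Kcnn3 lost its call without overexpressing replicate 1 (-0.27, adjusted p = 0.219), without empty-vector replicate 1 (adjusted p = 0.153) or 2 (0.108), and with library sizes alone (0.0509). Kcnn1, which encodes SK1, rose to 8.63 and 7.08 CPM in overexpressing libraries, against 4.80 and 4.82 CPM in empty-vector libraries (log2 fold change 0.71, SE 0.15, adjusted p = 0.00735). Kcnt2, which encodes Slick, a sodium-activated relative, had 17 and 12 fragments in overexpressing libraries and none in the empty-vector libraries. With 3 fragments over the empty-vector group as the floor, Kcnt2 was at least 10.4-fold higher (adjusted p = 0.00164), at a level of 0.0474 FPKM in overexpressing cells. Kcnt2 passed the low-count filter through the overexpressing libraries alone. Without overexpressing replicate 1 its 12 fragments fall short of the minimum total of 15, so its call could not be checked there. Kcnu1, the pH-gated Slo3 channel of sperm, had 17 fragments in overexpressing and 13 in empty-vector cells and was not tested.

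The accessory subunits of the large-conductance BK channel were counted with hardly any fragment of its pore. Kcnmb1, which encodes the β1 subunit of smooth muscle BK channels, had 35 and 42 fragments in overexpressing libraries, against 1 and 3 in empty-vector libraries. These were 0.670 and 1.15 CPM in overexpressing libraries, against 0.0224 and 0.0593 CPM in empty-vector libraries (log2 fold change 4.32, SE 0.57, adjusted p = 0.000761). Kcnma1, the pore, had 6 fragments in overexpressing replicate 1 and none in the other 3 libraries, and was not tested. Lrrc26, a leucine-rich γ subunit of BK channels, had no fragment in overexpressing cells and 38 in empty-vector cells, and was at least 11.8-fold lower with 3 fragments over the overexpressing group as the floor (adjusted p = 0.00123). Kcnmb2 (0.50, SE 0.31) and Kcnmb4 (-0.19, SE 0.24) did not pass, and Kcnmb2 stood at 0.82 without overexpressing replicate 1. Of the 50-base windows of Kcnmb4, 30.7% match other annotated genes on either strand. Its exons share 0% of their bases with genes on the same strand, and Kcnmb4os1 and Kcnmb4os2 overlap its span on the opposite strand.

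Of the other auxiliary genes, Kcne4 and Kcnab2 rose. Kcne4, a single-pass subunit that inhibits several Kv channels, stood at 3.22 and 1.70 CPM in overexpressing libraries, against 0.314 and 0.356 CPM in empty-vector libraries (log2 fold change 2.88, SE 0.39, adjusted p = 0.000970). Kcnab2, the cytoplasmic β2 subunit of Kv1 channels, stood at 1.84 and 2.02 CPM in overexpressing libraries, against 0.359 and 0.435 CPM in empty-vector libraries (log2 fold change 2.26, SE 0.27, adjusted p = 0.000461). The most abundant auxiliary gene, Kcnab3, which encodes another Kv β subunit, stood at 5.63 and 5.33 CPM in overexpressing libraries, against 7.00 and 7.08 CPM in empty-vector libraries, and missed the threshold (log2 fold change -0.36, SE 0.14, adjusted p = 0.0670). Kcnrg, whose human counterpart interferes with the assembly of Kv channels, fell to 4 and 6 fragments in overexpressing libraries, against 22 and 14 in empty-vector libraries (log2 fold change -1.72, SE 0.54, adjusted p = 0.0329). Kcnrg lost its call without overexpressing replicate 1 (adjusted p = 0.179), without empty-vector replicate 1 (0.209) and in DESeq2 (0.168). Kcnab1 (0.22, SE 0.39) and Kcnip3 (0.73, SE 0.53) did not pass.

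The libraries within each group differed from each other, as did their summed muscle markers. Of the 10 lower channel genes, 9 had a higher CPM in the second overexpressing library than in the first (median log2 ratio 0.39), as did 2564 of the 3324 lower genes in all (median 0.13). Of the 11 higher channel genes, 6 stood higher in overexpressing replicate 2 and 5 in replicate 1 (median 0.01). Of all 3540 higher genes, 909 stood higher in overexpressing replicate 2 and 2631 in replicate 1 (median -0.11). Between the empty-vector libraries, 2145 of all lower genes stood higher in replicate 2 and 1179 in replicate 1 (median 0.06). Of all higher genes, 1026 stood higher in empty-vector replicate 2 and 2479 in replicate 1 (median -0.11). For channel genes these empty-vector counts were 4 and 6 of the lower (median -0.09) and 5 and 4 of the higher (median 0.01). The channel counts leave out genes with 0 fragments in an empty-vector library, whereas the counts over all genes keep them. Left out were Kcnj8, with 0 and 1 fragments in empty-vector replicates 1 and 2, and Kcnt2, with 0 in both. The part of these differences in the calls was not tested.

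In the authors' deposited table, the log2 fold changes of all 32 tested channel genes had the same sign as those given here. Which libraries entered that table is not stated, and it may rest on these libraries, on others or on both. Of the 42, 22 had an adjusted p below 0.05 in the authors' deposited table, of which 20 passed here too. Kcnk2 and Kcnab3 passed only in the authors' deposited table (adjusted p = 0.0314 and 0.0336), and Kcnrg only here. For the sparse genes Kcnt2 and Kcnj8, the authors' deposited table gave log2 fold changes of 2.82 and 3.23, smaller than those of the fit here. Kcnmb1 and Kcna4 were smaller there too, at 3.23 and 2.78, against 4.32 and 3.43 here. The cause of these differences was not tested.

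Partner subunits, potassium pumps and transporters, and other genes of membrane excitability were mostly lower. Of 41 tested from a list of 54, 23 were lower and 4 were higher, which is 65.9% called beside 43.2% of all genes. Their median on the log2 scale was -0.65, beside 0.01 for all genes. Of 12 genes tested for pumps and transporters of potassium, 7 were lower and none was higher. Slc12a2, a cotransporter of sodium, potassium and chloride, fell to 79.3 ± 13.5 CPM in overexpressing cells, against 147 ± 2.47 CPM in empty-vector cells (n = 2 each, adjusted p = 0.000874). Without empty-vector replicate 1 the count of lower genes in the list was 15.

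Of 16 sodium, calcium and chloride excitability genes tested, 10 were lower and 2, among them Cacna1g, were higher, beside 20.9% and 22.3% of all genes tested. Scn4a, the sodium channel of adult skeletal muscle, stood at 12.8 and 24.2 CPM in overexpressing libraries, against 90.2 and 84.9 CPM in empty-vector libraries (log2 fold change -2.26, SE 0.33, adjusted p = 0.00918). Cacna1s, the voltage sensor of excitation-contraction coupling, stood at 63.0 and 125 CPM in overexpressing libraries, against 327 and 303 CPM in empty-vector libraries (log2 fold change -1.75, SE 0.36, adjusted p = 0.0234). Both lost their calls without empty-vector replicate 1 (adjusted p = 0.158 for Scn4a and 0.238 for Cacna1s) and without empty-vector replicate 2 (0.127 and 0.194), and without the low-count filter (0.116 and 0.192). In these fits the log2 fold changes were -2.21, -2.30 and -2.27 for Scn4a and -1.70, -1.80 and -1.76 for Cacna1s. Scn3b, a sodium channel β subunit (-2.74, SE 0.30, adjusted p = 0.000294), Cacng1, a calcium channel γ subunit (-1.03, SE 0.11, adjusted p = 0.000296), and Stim1, the calcium sensor of the reticulum (-0.80, SE 0.09, adjusted p = 0.000305), fell as well. Dlg4, a scaffold that binds Kv1 and Kir2 channels in neurons, rose to 48.9 and 45.8 CPM in overexpressing libraries, against 31.5 and 29.4 CPM in empty-vector libraries (log2 fold change 0.64, SE 0.08, adjusted p = 0.000724). Clcn1, the muscle chloride channel, did not pass (-0.41, SE 0.26), and Cacna1h was not tested.

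**Figure D5:**
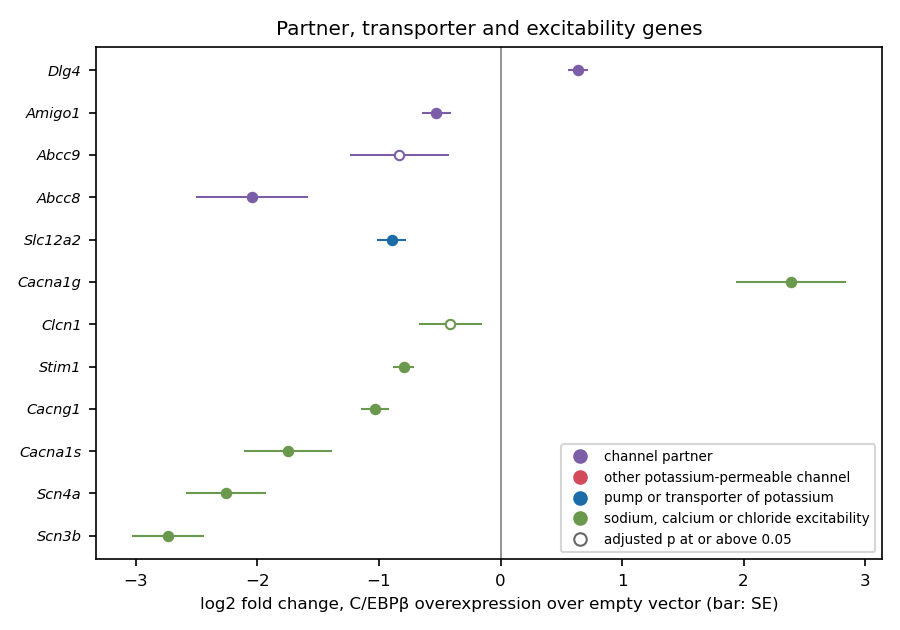
Log2 fold change of overexpressing over empty-vector cells for the tested partner, transporter and excitability genes described with values, with bars for the SE, coloured by class and with open points at an adjusted p of 0.05 or above. Lrrc26, with no fragment in overexpressing cells, is left out. Scn3b (-2.74) and Scn4a (-2.26) lie furthest to the left of 0, and Cacna1g and Dlg4 lie to the right.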

How the data were processed

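RNA was sequenced in 2 libraries of C/EBPβ-overexpressing and 2 of empty-vector cells, grouped by the sample titles. Raw counts of fragments in each gene were deposited. HISAT2 2.0.4 (GRCm38) and featureCounts 1.4.6 are named in the submitters' processing notes, while the file headers name featureCounts 1.5.1 (paired, reverse strand, GENCODE M12). The command in those headers sets no multi-mapping option, so genes with near copies can be undercounted. Per the file headers, the authors' comparison table gives log2 fold changes with standard errors, a test score, and p-values. The sources used here do not state which libraries entered it.

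Genes were filtered with edgeR's filterByExpr (minimum count 10, minimum total 15), scaled by TMM and tested with edgeR 4.0.16 (R 4.3.3) with the quasi-likelihood functions glmQLFit (robust) and glmQLFTest (2-sided), p-values being adjusted over 15886 genes by Benjamini-Hochberg and called below 0.05. The SE was taken from the F statistic, and FPKM is TMM-scaled CPM per kilobase of counted exons. Chi-square over its degrees of freedom came to 25.9 for the overexpressing pair and 18.2 for the empty-vector pair, so no library was a copy. Intervals and floors cover counting error only. Alternatives were DESeq2 1.42.0, limma-voom (limma 3.58.1), other scalings and filters, a replicate block, and leaving out each library. The procedure was tested on simulated data. Full values are given for channel genes past the threshold, the most abundant of each class and a set with known muscle roles, and for the partner genes with the smallest p and a set fixed by name. Some genes that enter the counts and sums are not reported here. Amigo1, Lrrc26 and Cacna1g were named after their values were seen. The channel genes and lists were chosen with earlier results of these data known.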

Additional observations from a re-analysis of the deposited data

How the results depend on the processing

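All genes, channel genes, partner genes and Cebpb were refitted under 12 alternatives. With a filter at a mean of 1 CPM, 6 channel genes were higher and 8 lower, since fewer channel genes were tested. Without 1 library at a time, the channel genes higher numbered 11 to 13 and lower 8 to 12, the partner genes higher 3 to 5 and lower 15 to 24, and all genes higher 2169 to 3712 and lower 1836 to 3702, the lowest without empty-vector replicate 2, for a cause that was not tested. With library sizes alone, 3947 genes were higher and 2852 lower. No called channel gene changed direction under these alternatives. Of those not called, Kcnip3 ranged from -0.054 (without overexpressing replicate 1) to 1.28 and Kcnmb4 from -0.44 to 0.10 (without empty-vector replicate 1) when 1 library was left out. Over 371 refitted values of single channel genes, 351 kept direction and side of the threshold, 8 lost a call and 10 gained one. No label ties equal replicate numbers to one culture. With the replicate number as a block, 12 channel genes were higher and 10 lower, Kcnk2 passed (0.66, adjusted p = 0.0107), Scn4a and Cacna1s did not (0.0642 and 0.0841), and the deviations of same-numbered libraries correlated at 0.147 across genes, which are not independent replicates. Depth limits the 10 untested channel genes, which had at most 15 fragments in any library; 3 fragments correspond to 0.0574 to 0.0821 CPM.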

Other observations

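Antisense transcripts of channel genes were outside the comparisons. Kcnq1ot1, the imprinted RNA antisense to Kcnq1, stood at 4.70 CPM in overexpressing and 3.84 CPM in empty-vector cells and did not reach the threshold (log2 fold change 0.28, SE 0.20, adjusted p = 0.279), while Kcnq1 itself had 6 fragments in overexpressing and 21 in empty-vector cells. Kcnab3os had 6 and 3 fragments in overexpressing libraries, against 0 and 6 in empty-vector libraries. Among channel genes outside the authors' table, the most fragments were counted for Kcnj9, a subunit of G-protein-gated channels, with 14 and 1 in overexpressing libraries and 2 in each empty-vector library, and for Kcnip2, with 5 in each overexpressing library, against 1 and 7 in empty-vector libraries. Kcne3 had 3 and 1 fragments in overexpressing libraries and none in empty-vector libraries, Kcnc4 had 1 in each group, and Kcna5 and Kcnq5 had none.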
